A study of Mus musculus with 8 samples.

Results

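The 30 genes described here encode enzymes and carriers of the TCA cycle (14 genes) and of fatty acid uptake, activation and β-oxidation (16 genes), out of 21887 protein-coding genes on 21 chromosomes. They were chosen by function, as a named list. Their data are peaks of phosphorylated CREB1 (phospho-CREB1) from chromatin immunoprecipitation and sequencing (ChIP-seq) of mouse muscle. A gene was counted as having a gene-end peak in a library when the summit of a peak was no more than 1000 bp away from one of the ends of its span in the GRCm38 annotation. C26 mice were male Balb/c animals that received C26 cells, a colon adenocarcinoma line whose tumours cause muscle wasting, under the skin of the right flank at 2 months of age. CTRL mice were the controls, whose labels carry the same protocol with no other strain, sex or age, and no genetic modification is named for either group. C26 mice are also described as having received rolipram, an inhibitor of phosphodiesterase 4, at 3 mg/kg, or its vehicle, without a statement of which the ChIP-seq animals received. Each group had 2 phospho-CREB1 libraries, each set against an input library of its own group. Nothing in the labels says whether the libraries of a group came from separate animals or from pools, so the spread between them may be technical.

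The series title names impaired cAMP and CREB1 signalling and mitochondrial dysfunction in cachectic muscle, and the enzymes of fuel oxidation belong to that process. CREB1 is a transcription factor that is phosphorylated by protein kinase A when cAMP rises, and it binds the cAMP response element, TGACGTCA, or its half-site, TGACG. The TCA cycle oxidises acetyl-CoA in the mitochondrial matrix and passes the electrons on as NADH. Fatty acid β-oxidation shortens acyl-CoA chains to acetyl-CoA and feeds electrons into NADH and, through the electron transfer flavoprotein, into ubiquinone, and it is a main fuel route of resting and endurance muscle.

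Promoter stretches are shown for members picked as examples with and without peaks and half-sites. Mdh1, not among them, had a peak in all 4 libraries and no half-site in its promoter window. The stretches run from 200 bases before to 20 bases after the transcription start at the end of the gene span. They are RefSeq sequences of GRCm38.p6, written 5′ to 3′ on the strand of the gene, with every half-site (TGACG, or CGTCA on the other strand) in capitals. Ogdh (chr11:6291397-6291616, plus strand) and Mdh2 (chr5:135778449-135778668, plus strand) were the only members with a full element in their promoter windows, and both had strong peaks in all 4 libraries.
Ogdh: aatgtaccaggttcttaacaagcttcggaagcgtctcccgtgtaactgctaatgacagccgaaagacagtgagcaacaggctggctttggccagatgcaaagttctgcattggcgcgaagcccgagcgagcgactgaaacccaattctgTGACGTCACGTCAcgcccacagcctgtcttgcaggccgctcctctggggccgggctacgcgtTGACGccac
Mdh2: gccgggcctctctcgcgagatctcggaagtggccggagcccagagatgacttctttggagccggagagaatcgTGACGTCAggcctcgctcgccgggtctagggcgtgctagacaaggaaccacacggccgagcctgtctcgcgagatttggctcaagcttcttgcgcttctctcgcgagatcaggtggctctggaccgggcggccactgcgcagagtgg
Idh3b (chr2:130284432-130284651, minus strand) had the strongest CTRL peaks of all members, and Fabp3 (chr4:130308538-130308757, plus strand) had its summits on its half-site or 2 bp from it.
Idh3b: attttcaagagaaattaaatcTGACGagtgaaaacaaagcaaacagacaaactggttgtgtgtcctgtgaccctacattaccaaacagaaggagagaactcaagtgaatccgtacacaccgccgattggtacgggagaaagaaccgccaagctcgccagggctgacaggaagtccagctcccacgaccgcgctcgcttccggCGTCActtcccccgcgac
Fabp3: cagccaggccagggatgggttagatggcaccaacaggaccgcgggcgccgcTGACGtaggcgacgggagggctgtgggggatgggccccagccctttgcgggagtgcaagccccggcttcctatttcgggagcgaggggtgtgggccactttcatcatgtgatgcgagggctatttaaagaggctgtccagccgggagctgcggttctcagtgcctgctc
Hadhb (chr5:30155053-30155272, plus strand) and Acadvl (chr11:70015409-70015628, minus strand) had peaks and no half-site in this stretch, and Acads (chr5:115119327-115119546, minus strand) had neither a peak nor a half-site.
Hadhb: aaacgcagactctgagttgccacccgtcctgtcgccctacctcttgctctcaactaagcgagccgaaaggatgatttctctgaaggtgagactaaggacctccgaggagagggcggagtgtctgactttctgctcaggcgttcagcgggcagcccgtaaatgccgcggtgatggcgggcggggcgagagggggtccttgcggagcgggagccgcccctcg
Acadvl: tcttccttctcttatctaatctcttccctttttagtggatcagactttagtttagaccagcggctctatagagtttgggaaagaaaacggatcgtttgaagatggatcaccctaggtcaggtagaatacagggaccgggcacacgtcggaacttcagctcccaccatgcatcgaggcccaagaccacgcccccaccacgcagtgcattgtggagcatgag
Acads: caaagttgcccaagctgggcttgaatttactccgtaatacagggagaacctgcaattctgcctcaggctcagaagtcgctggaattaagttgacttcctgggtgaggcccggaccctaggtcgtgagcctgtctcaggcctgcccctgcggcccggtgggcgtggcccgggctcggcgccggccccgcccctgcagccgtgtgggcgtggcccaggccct

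The peak lists held 7482 and 4051 peaks for C26 replicates 1 and 2, against 10835 and 14975 for CTRL replicates 1 and 2. C26 replicate 2 thus had the shortest list, and counts that rest on it are also given without it. The read depth of the libraries is unknown, and a gene with no peak in a list is one with no signal past the authors' threshold there, and it may still be bound. Fold enrichment over input and −log10 q are the authors' own values per peak, on a scale set within each list. Strength is therefore given as the percentile of the peak by −log10 q in its own list, with 100 for the strongest, and percentiles of lists of different lengths show no change in binding. An exact permutation test of 2 libraries against 2 cannot give a two-sided p below 0.333, so counts are set beside the same counts over all genes and no test is given. Of 15 markers of muscle fibres, 4 and 1 had a gene-end peak in C26 replicates 1 and 2. In CTRL replicates 1 and 2 the counts were 9 and 10. The shares of all genes were 26.1% and 14.0% in the C26 lists, against 33.9% and 40.1% in the CTRL lists. Acta1, Ckm and Mb were among the 9 markers with a peak in both CTRL libraries (60.0%, against 32.2% of all genes). Myh1, Myh2, Myh7, Casq1 and Myoz1 had no gene-end peak in any library (33.3%, against 57.7% of all genes). None of 10 endothelial, 8 adipocyte, 10 leukocyte and 8 fibroblast markers had one in a C26 library or in both CTRL libraries. In CTRL replicate 2 alone, Kdr and Flt1 of the endothelial markers had one (20.0%), as did Col1a1 and Fn1 of the fibroblast markers (25.0%). Of all genes, 6.36% had one in that library alone. The muscle fibre markers thus had fewer peaks in the C26 libraries, as the members and all genes did. The part of tissue makeup in the counts of members was not tested. In whole tissue, fewer cells of a type and less binding per cell cannot be told apart.

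In the full lists, phospho-CREB1 peaks were called at most of the fuel oxidation genes in CTRL muscle and at fewer in C26 muscle. A peak in both C26 libraries was called at 7 TCA cycle genes and at 1 fatty acid oxidation gene, while both CTRL libraries had one at 11 genes of each arm. A gene-end peak was found at 19 members in C26 replicate 1 (63.3%, against 26.1% of all genes) and at 8 members in C26 replicate 2 (26.7%, against 14.0%). In CTRL muscle it was found at 22 members in replicate 1 (73.3%, against 33.9% of all genes) and at 26 in replicate 2 (86.7%, against 40.1%). Both C26 libraries had a peak at 8 members (26.7%, against 13.0% of all genes) and both CTRL libraries at 22 (73.3%, against 32.2%). All 8 members with a peak in both C26 libraries also had one in both CTRL libraries, and these were Idh3a, Idh3g, Ogdh, Dld, Fh1, Mdh1, Mdh2 and Acadvl (26.7%, against 12.7% of all genes with a peak in all 4 libraries). The reverse of a CTRL-only gene is one bound in both C26 lists and in no CTRL list. In the full lists, where the CTRL lists are longer, it was not found among the members and made up 0.0274% of all genes. With every list trimmed to its 4051 strongest peaks, C26 replicates 1 and 2 had a gene-end peak at 13 and 8 members. CTRL replicates 1 and 2 then had one at 13 and 16. In the trimmed lists 84 of 21887 genes had a peak in both C26 and neither CTRL list, against 233 with the reverse. Neither class held a member. Shares of all genes were not counted for each trimmed list.

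Another 10 members had a peak in both CTRL libraries and in exactly 1 C26 library, which was replicate 1 for each of them (33.3%, against 12.0% of all genes). These were Cs, Idh3b, Suclg1, Fabp3, Acsl1, Acadm, Hadha, Hadhb, Etfb and Etfdh. Sucla2, Cpt2, Acadl and Etfa had a peak in both CTRL and neither C26 library (13.3%, against 7.40% of all genes). Dlst, Cpt1b and Echs1 had one in CTRL replicate 2 alone (10.0%, against 6.36%), and Hadh had one in C26 replicate 1 and CTRL replicate 2. No library had a gene-end peak at Idh2, Suclg2, Cd36 or Acads (13.3%, against 57.7% of all genes).

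Since most members had a peak in both CTRL libraries, the presence of a C26 peak was also counted among genes that both CTRL lists held. Of the 22 such members, 4 had no peak in either C26 library and 8 had one in both. Among all 7037 such genes, 23.0% had no C26 peak and 39.6% had a peak in both C26 libraries. The members' counts were thus close to the background of bound genes. Without C26 replicate 2, 18 of the 22 members (81.8%) had a peak in the remaining C26 library, against 74.9% of the 7037 genes, and 4 had none, against 25.1%. Without C26 replicate 1, 14 of the 22 had no C26 peak (63.6%, against 58.3%). Without CTRL replicate 1, 7 of the 26 members bound in CTRL replicate 2 had no C26 peak, against 34.3% of 8775 genes. With all lists shortened to the 4051 peaks of highest −log10 q, the length of the shortest, 0 of the 12 members with a peak in both CTRL lists lacked a C26 peak, against 233 of 3187 genes (7.31%).

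**Figure D1:**
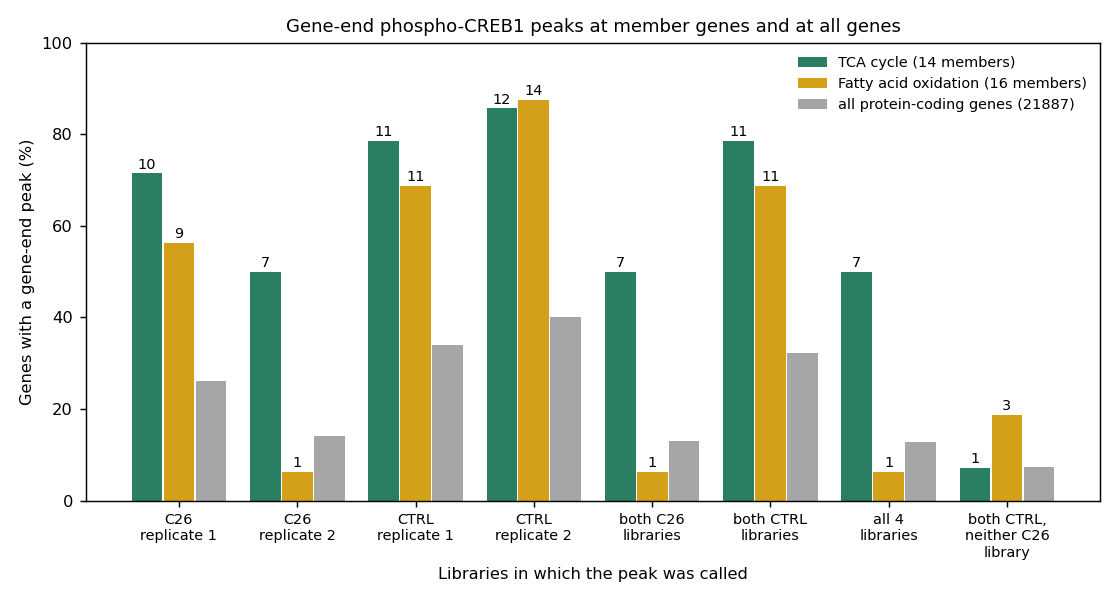
Share of genes with a gene-end phospho-CREB1 peak (y axis, percent) in each library and in combinations of libraries (x axis), for the 14 TCA cycle members, the 16 fatty acid oxidation members and all 21887 protein-coding genes; numbers on the bars are members. In C26 replicate 2, 7 TCA cycle members and 1 fatty acid oxidation member had a peak, while both CTRL libraries had a peak at 11 members of each arm.

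The arms of the pathway differed in their counts in 1 library, C26 replicate 2. Of the 14 TCA cycle genes, 10 and 7 had a peak in C26 replicates 1 and 2, against 11 and 12 in CTRL replicates 1 and 2. Of the 16 fatty acid oxidation genes, 9 and 1 had a peak in C26 replicates 1 and 2, against 11 and 14 in CTRL replicates 1 and 2. The shares of all genes were 26.1% and 14.0% in the C26 lists, against 33.9% and 40.1% in the CTRL lists. A peak in all 4 libraries was found at 7 of 14 TCA cycle genes and at 1 of 16 fatty acid oxidation genes (6.25%), against 12.7% of all genes. Without C26 replicate 2, a peak in all remaining libraries was found at 10 of 14 TCA cycle genes and 8 of 16 fatty acid oxidation genes, 18 of 30 in all, against 24.1% of all genes. The TCA cycle peaks also stood higher in their lists. Their median percentile was 74.3 in C26 replicate 1, 51.8 in C26 replicate 2, 81.9 in CTRL replicate 1 and 84.6 in CTRL replicate 2. For fatty acid oxidation the medians were 46.9 in C26 replicate 1, 53.7 in CTRL replicate 1 and 73.6 in CTRL replicate 2, and the single peak in C26 replicate 2 stood at 18.5. Over all gene-end peaks the medians were 58.6 and 60.0 in C26 replicates 1 and 2, against 61.3 and 66.2 in CTRL replicates 1 and 2.

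**Figure D2:**
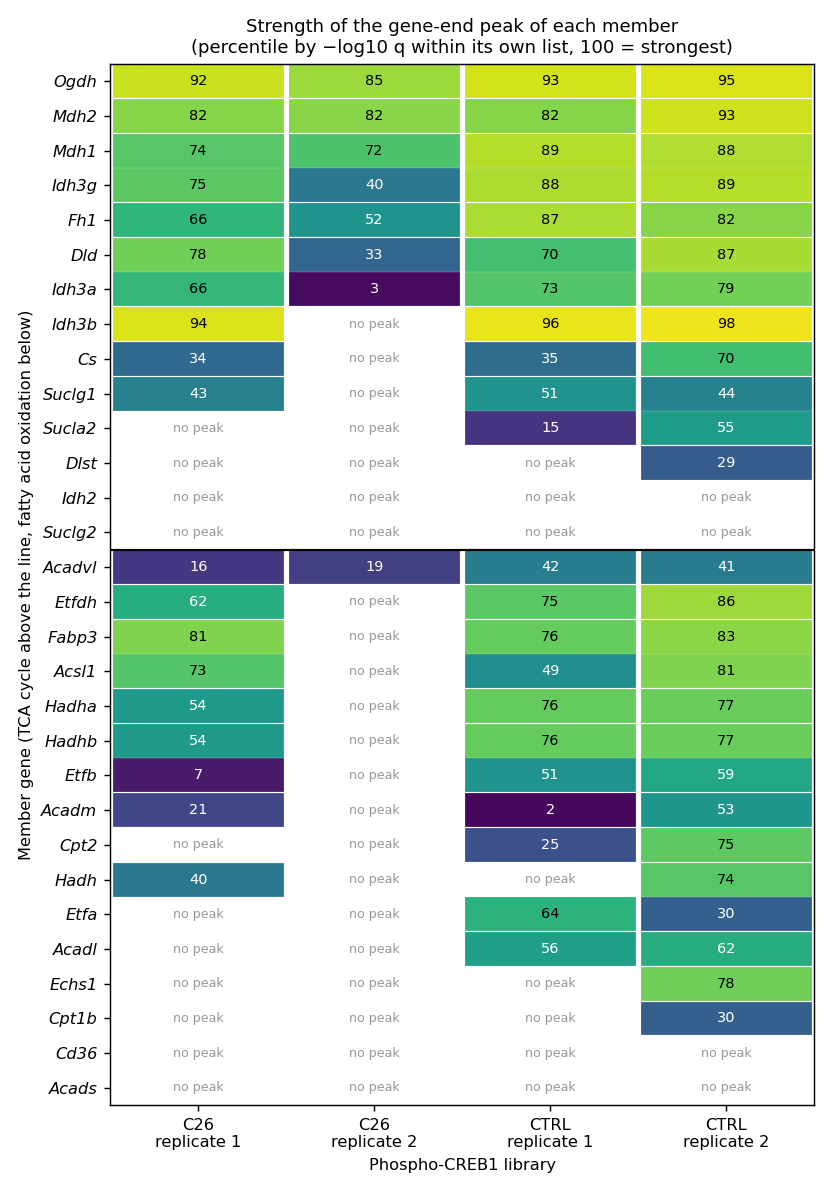
Percentile of the gene-end peak of each member (rows) by −log10 q within its own list, where 100 is the strongest, in each of the 4 phospho-CREB1 libraries (columns); where a gene had several gene-end peaks, the strongest is shown. The peaks of Ogdh, Mdh2 and Mdh1 stood above percentile 70 in every list, and Acadvl was the only fatty acid oxidation member with a peak in C26 replicate 2.

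The oxoglutarate dehydrogenase complex, which turns 2-oxoglutarate into succinyl-CoA, held both ends of the pattern. Ogdh, its substrate-decarboxylating component, had fold enrichments of 13.1 and 12.8 in C26 replicates 1 and 2, against 18.4 and 23.7 in CTRL replicates 1 and 2. The peak stood at percentiles 91.8 and 84.9 in the C26 lists and 93.2 and 94.5 in the CTRL lists, and it was broad, from 1418 to 1556 bp, against median widths of 420 to 515 bp over each whole list. In CTRL replicate 2 it ran from 6291311 to 6292728 on chromosome 11, across the start of the gene at 6291597. Dld, the dihydrolipoamide dehydrogenase that this complex shares with pyruvate dehydrogenase, had peaks of 8.91-fold and 5.99-fold in C26 replicates 1 and 2, against 7.99-fold and 18.1-fold in CTRL replicates 1 and 2. Its percentiles were 78.4 and 33.2 in C26 and 70.0 and 86.9 in CTRL libraries. Dlst, the dihydrolipoamide succinyltransferase of the complex, had no C26 peak and none in CTRL replicate 1, and a 5.42-fold peak in CTRL replicate 2 at percentile 28.6, within 1000 bp of an end of the neighbouring gene Prox2. The 3 components therefore ranged from a top-decile peak in both CTRL lists to a single weak one.

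NAD-dependent isocitrate dehydrogenase, the rate-setting enzyme of the cycle made of catalytic and regulatory subunits, had peaks at all 3 of its genes. Idh3b, the beta subunit, had a fold enrichment of 16.6 in C26 replicate 1 and no peak in C26 replicate 2, against 39.7 in CTRL replicate 1 and 53.3 in CTRL replicate 2. With percentiles of 94.3 in C26 replicate 1, 96.3 in CTRL replicate 1 and 97.6 in CTRL replicate 2, it was the strongest member in each list that held it (chromosome 2, 130283917 to 130284835 in CTRL replicate 2). The members next to it by mean CTRL percentile, Ogdh, Mdh1, Idh3g and Mdh2, each had a peak in C26 replicate 2, where Idh3b had none. Idh3g, the gamma subunit on chromosome X, had folds of 8.45 and 6.42 in C26 replicates 1 and 2, against 17.4 and 20.2 in CTRL replicates 1 and 2, at percentiles of 75.0 and 39.6 in C26 and 87.6 and 88.9 in CTRL libraries. Its peak also lay within 1000 bp of an end of Ssr4. Idh3a, the catalytic subunit, had folds of 7.44 and 4.13 in C26 replicates 1 and 2, against 10.1 and 12.7 in CTRL replicates 1 and 2. In C26 replicate 2 it stood at percentile 2.76, just past the authors' threshold, while its other percentiles were 66.3 in C26 replicate 1, 73.1 in CTRL replicate 1 and 78.7 in CTRL replicate 2. Idh2, the NADP-dependent mitochondrial enzyme, had no gene-end peak in any library.

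The malate and fumarate steps had a peak in every library. Mdh2, the malate dehydrogenase of the mitochondrial matrix, had folds of 8.49 and 11.4 in C26 replicates 1 and 2, against 11.1 and 21.1 in CTRL replicates 1 and 2. Its percentiles, 81.7 and 82.3 in C26 and 81.9 and 92.6 in CTRL libraries, were the most even of the members with a peak in all 4 lists together with those of Ogdh. The peak (chromosome 5, 135778186 to 135779106 in CTRL replicate 2) lay within 1000 bp of an end of Styxl1 too. Mdh1, the cytosolic enzyme of the malate-aspartate shuttle, had folds of 5.86 and 9.41 in C26 replicates 1 and 2, against 16.1 and 19.2 in CTRL replicates 1 and 2, at percentiles of 73.7 and 71.6 in C26 and 88.9 and 87.9 in CTRL libraries. It shares the region with Wdpcp. Fh1, fumarase, had folds of 5.47 and 7.16 in C26 replicates 1 and 2, against 15.7 and 14.2 in CTRL replicates 1 and 2, and its percentiles were 65.5 and 51.8 in C26 and 87.4 and 82.3 in CTRL libraries. Each of these 3 genes had a peak above the middle of all 4 lists.

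Citrate synthase and succinyl-CoA ligase had weaker peaks. Cs, the enzyme that joins acetyl-CoA to oxaloacetate, had a fold of 3.95 in C26 replicate 1 and no peak in C26 replicate 2, against 5.08 and 9.77 in CTRL replicates 1 and 2. Suclg1, the alpha subunit of succinyl-CoA ligase, had 5.61-fold enrichment in C26 replicate 1 and no peak in C26 replicate 2, against 6.15-fold and 6.09-fold in CTRL replicates 1 and 2, at percentiles from 43.0 to 51.3. Sucla2, the ADP-forming beta subunit, was the only TCA cycle member with a peak in both CTRL and neither C26 library. Its CTRL peaks were 4.65-fold at percentile 15.2 in replicate 1 and 8.03-fold at percentile 54.8 in replicate 2 (chromosome 14, 73552655 to 73553239). Suclg2, the GDP-forming beta subunit, had no gene-end peak in any library. Of the 3 ligase genes, the alpha subunit alone had a C26 peak.

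Among the members for uptake and activation of fatty acids, Fabp3 and Acsl1 had peaks and Cd36 had none. Cd36, the fatty acid translocase, had no gene-end peak in any library. Fabp3, the fatty acid binding protein of heart and muscle, had a fold of 10.3 in C26 replicate 1 and no peak in C26 replicate 2, against 8.85 and 15.6 in CTRL replicates 1 and 2, at percentiles of 80.7 in C26 replicate 1 and 76.3 and 82.7 in CTRL libraries. Acsl1, the main acyl-CoA synthetase of muscle, had 8.11-fold enrichment in C26 replicate 1 and no peak in C26 replicate 2, against 5.09-fold and 14.7-fold in CTRL replicates 1 and 2. Fabp3 was the strongest fatty acid oxidation peak in C26 replicate 1, and Acsl1 came next.

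The carnitine shuttle had no C26 peak at either of its members. Cpt1b is the muscle form of the carnitine palmitoyltransferase that controls entry into mitochondria. It had gene-end peaks in CTRL replicate 2 alone, where there were 2, and the stronger by −log10 q was 5.38-fold. The summit of that peak lay outside the span, 960 bp from its end at 89416405. This was the farthest of the peaks described for members inside the limit of 1000 bp. No transcription start was listed for Cpt1b, so whether transcription starts at that end was not determined. The nearest peaks outside the limit were at 1078 bp for Idh3b in CTRL replicate 2 (3.81-fold, beside its other span end) and at 1850 bp for Fabp3 in CTRL replicate 1 (7.37-fold), both genes that had a nearer peak in those libraries. Cpt2, the palmitoyltransferase of the inner membrane, had 4.55-fold enrichment in CTRL replicate 1 and 11.9-fold in CTRL replicate 2, at percentiles 24.5 and 75.1 (chromosome 4, 107923325 to 107923921 in CTRL replicate 2). Its percentiles in the CTRL lists were far apart, and neither C26 list had a peak there.

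The acyl-CoA dehydrogenases, which take the first oxidation step according to chain length, differed from each other. Acadvl, for very long chains, had folds of 3.81 and 5.18 in C26 replicates 1 and 2, against 5.09 and 6.54 in CTRL replicates 1 and 2 (chromosome 11, 70015266 to 70015579 in CTRL replicate 2). Its percentiles of 16.0 and 18.5 in C26 and 42.1 and 41.5 in CTRL libraries made it the weakest CTRL peak among the members present in all 4 libraries. Acadl, for long chains, had no C26 peak and folds of 7.80 and 8.43 in CTRL replicates 1 and 2, at percentiles 56.1 and 62.4 (chromosome 1, 66862719 to 66863384 in CTRL replicate 2). Acadm, for medium chains, had 4.12-fold enrichment in C26 replicate 1 and no peak in C26 replicate 2, against 3.10-fold and 7.63-fold in CTRL replicates 1 and 2, where the peak of CTRL replicate 1 stood at percentile 2.08. Acads, for short chains, had no gene-end peak in any library. Acadl thus had stronger CTRL peaks than Acadvl by percentile and fold, and Acadvl had the C26 peaks. The C26 peaks of Acadvl were weak, and at −log10 q of at least 5 neither remained, so that Acadvl then had a peak in both CTRL libraries alone and no fatty acid oxidation member had one in both C26 libraries.

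The members at later steps of the β-oxidation spiral had a C26 peak in replicate 1 at most. Hadha and Hadhb, the alpha and beta subunits of the mitochondrial trifunctional protein, are neighbours transcribed away from each other and share a single peak in each library that had one there. That peak was 6.07-fold in C26 replicate 1 and absent from the list of C26 replicate 2, against 10.8-fold and 12.0-fold in CTRL replicates 1 and 2, and it counts as 1 peak for both genes. Hadh, the hydroxyacyl-CoA dehydrogenase for shorter chains, had 4.43-fold enrichment in C26 replicate 1 and none in C26 replicate 2, against no peak in CTRL replicate 1 and 11.8-fold enrichment in CTRL replicate 2. Echs1, the short-chain enoyl-CoA hydratase, had a peak in CTRL replicate 2 alone, of 13.0-fold at percentile 78.1, in a region shared with Paox.

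The electron transfer chain of β-oxidation had a peak at all 3 of its genes in both CTRL libraries. Etfdh, which passes electrons from the flavoprotein to ubiquinone, had the strongest CTRL peaks of the arm by mean percentile (80.0), with a fold of 4.93 in C26 replicate 1 and no peak in C26 replicate 2, against 9.05 and 16.6 in CTRL replicates 1 and 2. Etfb, the beta subunit of the flavoprotein, had 2.98-fold enrichment at percentile 7.12 in C26 replicate 1 and no peak in C26 replicate 2, against 6.15-fold and 7.99-fold in CTRL replicates 1 and 2. Etfa, the alpha subunit, had no C26 peak and folds of 8.97 and 5.39 in CTRL replicates 1 and 2, at percentiles 64.3 and 30.4 (chromosome 9, 55511857 to 55512603 in CTRL replicate 2). The Etfb region also lies near an end of Cldnd2, and the Etfdh region near an end of 4930579G24Rik.

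Presence of a C26 peak followed the strength of the CTRL peak, among members as among all genes. For the members with a peak in both CTRL libraries, the median of the mean CTRL percentile was 86.0 for the 8 members with a peak in both C26 libraries, 70.6 for the 10 with a peak in 1, and 48.6 for the 4 with none. Over all genes these medians were 87.7 for 2786 genes, 65.0 for 2632 and 43.4 for 1619. Without C26 replicate 2, the median was 77.6 for the 18 members with a peak in C26 replicate 1 and 48.6 for the 4 without, against 77.7 for 5270 genes and 44.0 for 1767. Single members departed from that order. Idh3b, with a peak in 1 C26 library, had a mean CTRL percentile of 96.9, above the median of genes with a peak in both. Acadvl, with a peak in both C26 libraries, stood at 41.8, and Acadm, with a peak in 1, at 27.4, both below the median of genes with none. At mean CTRL percentiles from 75 to 100, C26 replicate 1 had a peak at all 12 members, against 98.7% of 2935 genes, and C26 replicate 2 at 7 of the 12, against 74.5% of those genes. All 8 TCA cycle members in this range had a peak in C26 replicate 1 and 7 of them in C26 replicate 2, while the 4 fatty acid oxidation members (Fabp3, Etfdh, Hadha and Hadhb, with 3 distinct peaks) had one in C26 replicate 1 and none in C26 replicate 2. From 25 to 50, C26 replicate 1 had a peak at 3 of 6 members, against 41.3% of 1444 genes, and C26 replicate 2 at 1 of 6, against 9.76%. The difference between the arms in C26 replicate 2 was not tested.

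**Figure D3:**
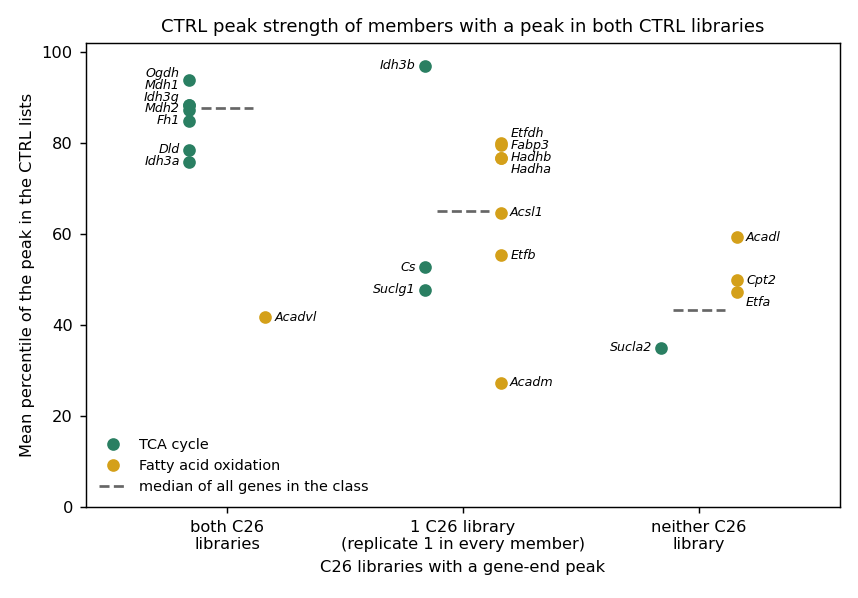
Mean percentile of the gene-end peak in the CTRL lists (y axis, 100 is the strongest) for the 22 members with a peak in both CTRL libraries, by the C26 libraries that also had a peak (x axis); each point is a gene, and dashed lines are the medians of all protein-coding genes in the class. Members with a peak in both C26 libraries had a median of 86.0 and those with none 48.6, while Idh3b stood at 96.9 with a peak in 1 C26 library and Acadvl at 41.8 with a peak in both.

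Only summits within 1000 bp of a span end were counted, which limits how far they could lie from a transcription start there. The distance from the summit to the nearest listed start could be taken for 70 member peaks, at 24 genes, counting the shared peak of Hadha and Hadhb for each of them. Of these peaks, 43 had the summit within 100 bp and 65 within 250 bp of the start, with a median distance of 62.5 bp. Distances from starts were not taken for the peaks of other genes. Half-sites were searched on both strands in promoter windows of 300 bases, 250 before and 50 after each listed start, which 28 of the 30 members had. A half-site (TGACG or CGTCA) was present at 12 of 28 members (42.9%), against 26.2% of 17492 genes with a window and 23.6% of all 21263 windows. All 12 were among the 21 members with a window and a peak in both CTRL libraries (57.1%, against 45.0% of such genes), and 0 of the other 7 had one, against 17.0% of genes without a peak in both CTRL libraries. By arm, 8 of 13 TCA cycle members (61.5%) and 4 of 15 fatty acid oxidation members (26.7%) had a half-site. Of the 7 members with a window and a peak in all 4 libraries, 5 had one (71.4%, against 60.3% of such genes). Without C26 replicate 2, 10 of 17 had one (58.8%, against 50.6%). Of the 4 with CTRL peaks and no C26 peak, 2 had one, Sucla2 and Etfa, against 27.1% of such genes. No match in a window says only that these letters were not in it.

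The full element (TGACGTCA, which holds 2 overlapping half-sites) was present at Ogdh and Mdh2, 2 of 28 members (7.14%), against 2.54% of genes and 2.23% of all windows. It lay from -51 to -44 of the Ogdh start at the end of the span and from -127 to -120 of the Mdh2 start, counting the first transcribed base as 1 and the base before it as -1. In the Ogdh stretch printed above a further CGTCA follows the element directly, and another TGACG lies just inside the transcript. The summit was 14 and 17 bp from the nearest half-site of Ogdh in C26 replicates 1 and 2, and 14 and 9 bp in CTRL replicates 1 and 2. For Mdh2 the distances were 15 and 28 bp in C26 and 5 and 31 bp in CTRL libraries. At Fabp3 the summit lay 2 bp from the half-site in C26 replicate 1 and on it in both CTRL libraries, and at Idh3b it lay 12 bp away in C26 replicate 1 and 3 and 7 bp away in the CTRL libraries. Over all 39 peaks of the 12 members with a half-site, 26 summits lay within 50 bp of one, with a median of 21 bp. Half-sites were searched only around starts, where most summits also lay, which bounds these distances. The same distance was not taken for other genes. The longer distances included those at Sucla2 (119 and 268 bp in CTRL), Etfa (166 and 412 bp in CTRL), Suclg1 (68 to 165 bp) and Acadm (90 to 193 bp), and that of Etfdh in CTRL replicate 2 (183 bp).

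**Figure D4:**
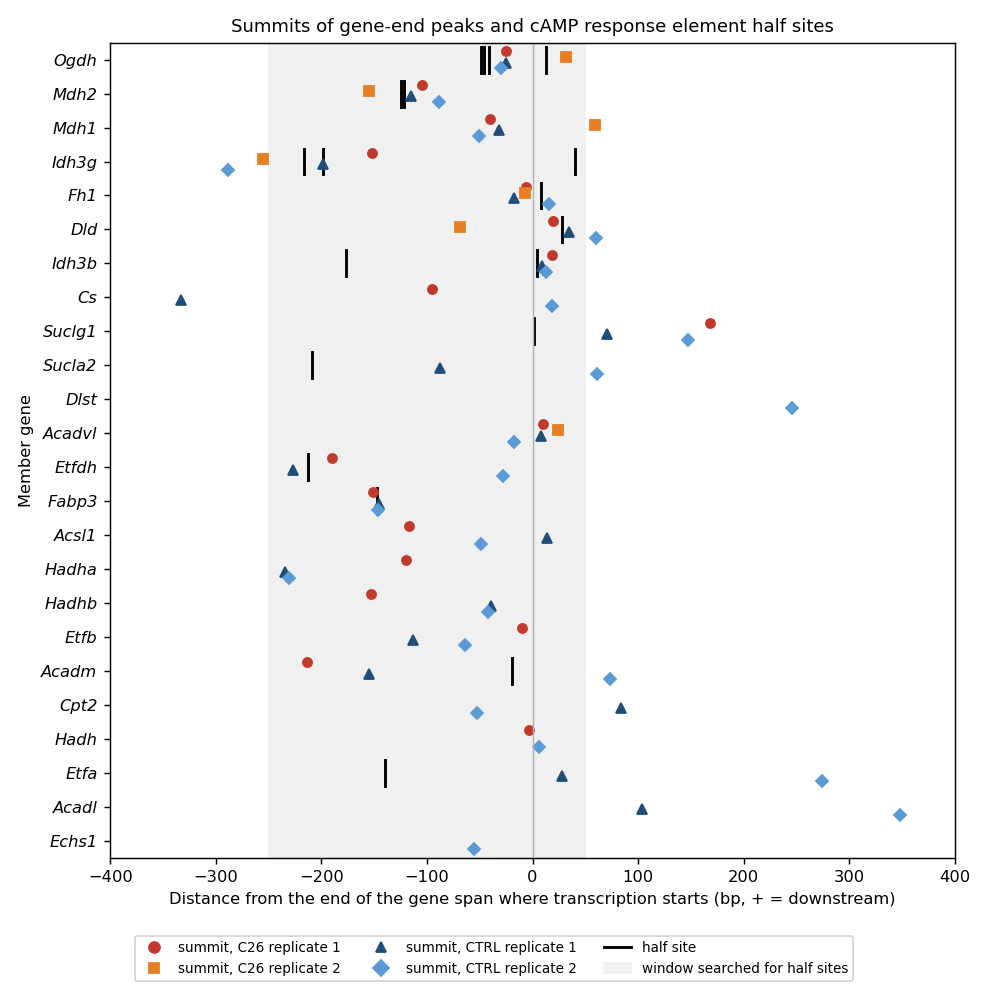
Summits of the gene-end peaks of the 24 members with a listed start and a peak (coloured symbols, 1 for each library) and half-sites of the cAMP response element (black ticks) by distance in bp from the end of the gene span at which transcription starts (x axis, positive downstream); the shaded band is the window searched for half-sites. The summits of Ogdh, Fh1, Idh3b and Fabp3 lay on or beside a half-site, and Hadha, Hadhb, Cs, Acsl1 and Mdh1 had summits near the start with no half-site in the band.

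Motifs of other factors were searched in the same windows, on both strands. The CCAAT box (CCAAT or ATTGG), the site of NF-Y, was in the windows of 14 of 28 members, against 42.3% of genes and 38.2% of windows. An ETS site (CCGGAAG or CTTCCGG), of the kind bound by GABPA, was in those of Cpt2, Dlst, Idh3b and Idh3g (14.3%, against 12.9% of genes and 11.6% of windows). The palindromic NRF1 site was in that of Etfdh alone (3.57%, against 1.47% of genes and 1.33% of windows). A match is a description of the letters and no evidence of binding. In Idh3b the ETS site lies directly beside a half-site at the transcription start.

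Genes of the same and related pathways outside the 30 were counted in the same way. The background was 26.1% and 14.0% of all genes in C26 replicates 1 and 2, and 33.9% and 40.1% in CTRL replicates 1 and 2. Of 15 other genes listed for the TCA cycle and its entry, 8 and 3 had a gene-end peak in C26 replicates 1 and 2. In CTRL replicates 1 and 2 there were 13 and 14. Sdhb, of succinate dehydrogenase, and Pdhb and Pcx, which bring pyruvate into the cycle, had a peak in all 4 libraries. Sdhd, Aco1, Pdhx and Me2 had one in both CTRL and neither C26 library (26.7%, against 7.40% of all genes). Among 35 other genes listed for fatty acid and ketone metabolism, not all of them genes of β-oxidation, 16 and 5 had a peak in C26 replicates 1 and 2. In CTRL replicates 1 and 2 there were 20 and 25. Acad9, an acyl-CoA dehydrogenase that also serves assembly of complex I, stood at percentiles 98.5 and 96.7 in C26 and 98.1 and 99.3 in CTRL libraries. Acaa2, Ivd and Slc22a5, the carnitine transporter gene, also had a peak in all 4 libraries (4 of 35, 11.4%). In the TCA cycle list 3 of 15 genes (20.0%) had one in all 4 libraries, against 12.7% of all genes, so that the share of the fatty acid list lay near the background. Without C26 replicate 2, 14 of 35 and 8 of 15 had a peak in all remaining libraries, against 24.1% of all genes. Cpt1a, Slc25a20, Lpl and Lipe were among the 9 of the fatty acid list with no gene-end peak in any library (25.7%, against 57.7% of all genes). In the same list, Acot9, Hsd17b10, Acacb, Slc27a4 and Mgll had one in both CTRL and neither C26 library (14.3%, against 7.40%).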

How the data were processed

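Phospho-CREB1 was profiled by ChIP-seq in C26 and CTRL muscle. The sample labels name the gastrocnemius and the extraction protocol the quadriceps, and that protocol speaks of antibodies against either CREB or phospho-CREB1, while the titles say phospho-CREB1. The submitters' processing notes name MACS2 2.1.4, Bowtie2 2.3.5.1, SAMtools 1.6, FastQC 0.11.2 and Picard, and the build mm10 (GRCm38). Per the labels, peaks were called for each library against its own input at a q-value threshold of 0.05. The deposited lists give the fold enrichment (a ratio to input) and the −log10 q-value of each peak, as the authors wrote them. Signal tracks and reads were not analysed here.

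From these lists, summits were set against the spans and transcription starts of GRCm38.p6 genes in RefSeq, with Python 3.11.15, pandas 2.3.3 and NumPy 2.4.6. The assignment was tested on simulated data. Where a gene had several gene-end peaks, the one with the highest −log10 q was described. Full values are given for members with a peak in all 4 libraries, in both CTRL and neither C26 library or in none, and for the 5 with the highest mean CTRL percentile. The members, the further gene lists and the marker lists were chosen with earlier results of these data known. A gene of the further lists is not reported here and was left out of their counts. Alternatives were another distance, overlap in place of summits, stricter thresholds, trimmed lists, transcription starts only, shared regions and leaving out each library.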

Additional observations from a re-analysis of the deposited data

How the results depend on the processing

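Over 19 results, 16 of 118 alternatives moved the value by more than 1.5 times or, for median percentiles, by more than the spread between libraries. With −log10 q of at least 5, the members with a peak in C26 replicate 2, in both C26 libraries and in all 4 libraries each numbered 5 (Fh1, Idh3g, Mdh1, Mdh2 and Ogdh). Shares of all genes were not counted for these at that threshold. Both CTRL libraries then had a peak at 19 members, against 27.8% of all genes. With every list trimmed to its 4051 strongest peaks, 13 members had a peak in C26 replicate 1 and 8 in C26 replicate 2. In the trimmed CTRL lists, 13 had one in replicate 1, 16 in replicate 2 and 12 in both, against 14.6% of all genes in both. The number with one in both CTRL and neither C26 library was then 0, against 1.06% of all genes. Leaving out a library makes the count for both libraries of its group that of the remaining library. This count was 8 without C26 replicate 1 and 19 without C26 replicate 2, and 26 without CTRL replicate 1 and 22 without CTRL replicate 2. Leaving out each library in turn gave 8 to 18 members with a peak in all remaining libraries. It gave 4 to 14 with one in CTRL and no C26 library (14 without C26 replicate 1, 7 without CTRL replicate 1). The reverse was found at 0 members. Leaving out C26 replicate 2, a choice made for these after seeing the data, also gave a median CTRL percentile of 77.6 in place of 86.0 for members with a peak in every library, 10 in place of 5 of them with a half-site, and 8 in place of 3 and 14 in place of 4 genes of the further TCA cycle and fatty acid lists with a peak in every library. The count with CTRL and no C26 peaks was 4 without C26 replicate 2, and the cause of these shifts was not tested. No paired analysis was possible because no model was fitted and nothing says that a replicate number pairs libraries. As plain counts within a number, the C26 list held 18 of 22 members of the CTRL list for replicate 1 (against 71.8% of all genes of that list) and 8 of 26 for replicate 2 (against 34.3%). Read depth is unknown, so the length of a list cannot be set against its reads.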

Other observations

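Some members had peaks inside the gene span and away from its ends. For Idh2, which had no gene-end peak, the listed transcription start lies inside the span. Near that start lay a peak of 4.22-fold at percentile 11.7 in C26 replicate 1 and a peak of 7.56-fold at percentile 50.6 in CTRL replicate 2, with summits at 243 bp and -42 bp from the start. Outside the span of Idh2, C26 replicates 1 and 2 had peaks of 5.28-fold and 5.43-fold, at percentiles 41.3 and 24.0. Their summits lay 2646 and 2700 bp from the nearer span end. In CTRL replicate 2 the nearest peak to a span end was the 7.56-fold one, at 3216 bp. Counting peaks within 1000 bp of any listed transcription start, a rule chosen after seeing the data, Idh2 was present in C26 replicate 1 and CTRL replicate 2. Under that rule 19 and 7 of the 28 members with a listed start had a peak in C26 replicates 1 and 2, against 21 and 25 in CTRL replicates 1 and 2. The shares of 17492 genes under that rule were 28.0% and 15.0% in the C26 lists, against 36.5% and 43.0% in the CTRL lists. Acsl1 had a further peak inside the gene in both CTRL libraries and in neither C26 library, of 6.29-fold in CTRL replicate 1 and 6.73-fold in CTRL replicate 2, with summits 8947 and 8769 bp from the nearer span end. Idh3a had one of 10.5-fold at percentile 68.7 in CTRL replicate 2.

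Cpt1b, which had a gene-end peak in CTRL replicate 2 alone, lies next to a region bound in every library. The region was singled out after its values were seen. Its peak was 6.87-fold and 13.8-fold in C26 replicates 1 and 2, at percentiles 76.6 and 86.4, against 8.65-fold and 21.9-fold in CTRL replicates 1 and 2, at percentiles 82.5 and 90.3. The summits lay 4012 to 4068 bp from the end of Cpt1b, and 1 and 53 bp in C26 and 13 and 3 bp in CTRL libraries from position 89429927 on chromosome 15. The RefSeq annotation places there the end of Chkb, a choline kinase gene, and of Gm44502, a noncoding transcript listed under the synonym Chkb-Cpt1b, whose span of 89416405 to 89429927 includes all of Cpt1b.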
